A study of Mus musculus with 24 samples.

Results

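The genes described here are the 9 of the relay that reports mitochondrial stress to the translation machinery and of the enzymes around it: Oma1, Dele1, the eIF2alpha kinase genes Eif2ak1 (HRI), Eif2ak2 (PKR), Eif2ak3 (PERK) and Eif2ak4 (GCN2), the kinases' substrate Eif2s1 (eIF2alpha), and the phosphatase subunits Ppp1r15a (GADD34) and Ppp1r15b (CReP). They were taken by gene name from a table of 56748 mouse genes, and all 9 were found in it. C2C12, an immortalised line of mouse myoblasts, was grown in DMEM with fetal bovine serum, and its RNA was sequenced in 24 libraries. The cells carried a lentiviral construct from which doxycycline induces UCP1, a carrier of brown fat mitochondria that lets protons back across the inner membrane. Cells received doxycycline or water 24 h after they were seeded, and the treatments, started after a further 24 h, lasted 16 h until the RNA was extracted. Each of the 6 groups had 4 libraries.

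The groups with doxycycline were Dox_OOA (1 µM oligomycin with 300 µM oleic acid), Dox_OA (300 µM oleic acid) and Dox_BSA (51 µM bovine serum albumin). The groups given water in its place were OOA (1 µM oligomycin with 300 µM oleic acid), OA (300 µM oleic acid) and BSA (51 µM bovine serum albumin). Oligomycin blocks the ATP synthase, the enzyme through which protons normally flow back into the matrix. Both arms held the same UCP1 construct. No cells without the construct were given doxycycline among these groups, so an effect of UCP1 and an effect of the antibiotic, which also acts on mitochondrial ribosomes, cannot be told apart. The albumin level of the groups with oleic acid is not given in the labels.

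Phosphorylation of eIF2alpha slows the start of translation on most mRNAs and favours that of a few, among them the mRNA of the transcription factor ATF4. HRI responds to low heme and, through DELE1, to mitochondrial stress; PKR responds to double-stranded RNA, PERK to unfolded proteins in the endoplasmic reticulum, and GCN2 to uncharged tRNA and stalled ribosomes. OMA1 is a protease of the inner mitochondrial membrane that becomes active when the membrane potential falls. It then cuts DELE1, whose fragment gathers in the cytosol and activates HRI. PPP1R15A and PPP1R15B bring the catalytic subunit PP1 to eIF2alpha and so remove the phosphate. PPP1R15B is present at all times, whereas PPP1R15A is made during stress and ends the response. The data are mRNA levels, so neither cleavage of DELE1 nor phosphorylation of eIF2alpha was measured.

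Pieces of reference sequence show the phosphorylated site of the substrate and the bases upstream of the members that rose most, as context for the values. The site that all these kinases phosphorylate lies in exon 2 of 8 of Eif2s1, at chr12:78866665-78866697 on the plus strand of GRCm38. Capitals mark the codon of the serine at residue 52 counted from the initiator methionine, in a protein of 315 residues.
Eif2s1 coding stretch: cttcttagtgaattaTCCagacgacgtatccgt
The stretch upstream of Ppp1r15a, the member with the largest change here, and a stretch before the downstream of the annotated starts of Eif2ak4, the kinase gene that rose with oligomycin, are RefSeq windows on GRCm38.p6 of 250 bases each, at chr7:45526269-45526518 on the minus strand and chr2:118388862-118389111 on the plus strand. Capitals mark TGACG, the core of the sites that factors of the ATF and CREB family bind, on either strand.
Ppp1r15a upstream: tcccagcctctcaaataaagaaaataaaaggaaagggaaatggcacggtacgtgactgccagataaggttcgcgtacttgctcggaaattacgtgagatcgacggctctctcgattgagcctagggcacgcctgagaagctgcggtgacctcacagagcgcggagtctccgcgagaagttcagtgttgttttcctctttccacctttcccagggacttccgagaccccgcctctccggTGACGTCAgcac
Eif2ak4 before its downstream start: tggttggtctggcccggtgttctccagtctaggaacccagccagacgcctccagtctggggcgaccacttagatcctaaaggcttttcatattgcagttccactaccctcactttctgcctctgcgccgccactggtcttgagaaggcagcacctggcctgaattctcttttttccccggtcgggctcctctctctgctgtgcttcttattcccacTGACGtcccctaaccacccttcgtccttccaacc
In Ppp1r15a, TGACG on the gene's strand and TGACG on the other strand overlap in the palindrome TGACGTCA, from position -12 to -5 before the start. In Eif2ak4, TGACG begins at position -34. Ppp1r15a and Oma1 also held TGACG after the start, outside the printed bases. Over all 32851 windows of 300 bases (250 before the start and 50 after it), 20.8% held TGACG and 1.79% held TGACGTCA on either strand; the longer form was searched for after the overlap in Ppp1r15a had been seen. CCACG, the second part of the endoplasmic reticulum stress element, stood in 32.8% of the windows, and, of the members searched, in those of Eif2ak1 and Ppp1r15a. TGATGNAAN, a form of the element bound by C/EBP and ATF4 dimers, stood in 3.95% of the windows and in none of those of the members searched. Windows were found for 7 of the 9 genes, and no window of Dele1 was searched. Eif2ak4 had a further window, before its first annotated start, without these motifs. The printed Eif2ak4 window was chosen because it holds TGACG, and it lies inside the gene as counted from that first start. A match of letters is not evidence of binding.

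Adding oligomycin to oleic acid changed the mRNA of 1 phosphatase subunit, Ppp1r15a, far more than those of the relay. Ppp1r15a averaged 55.3 FPKM in OOA cells and 5.18 FPKM in OA cells, a ratio of 10.7, and it averaged 12.3 FPKM in Dox_OOA cells and 4.50 FPKM in Dox_OA cells, a ratio of 2.73. Among the kinase genes Eif2ak4 rose in both arms and Eif2ak3 fell in both, whereas Eif2ak2 fell only in the water arm, a difference between the arms that passed its own test. Of the relay, Dele1 was called lower in the water arm, Eif2ak1 was called lower in the doxycycline arm, and Oma1 passed in no comparison. For Dele1 and Eif2ak1 the oligomycin response was not shown to differ between the arms. FPKM are fragment counts divided by gene length and library size, so levels can be set beside each other across genes. Tests were made with limma on log2(FPKM + 1), with Benjamini-Hochberg adjustment over the 12904 genes that reached 1 FPKM in at least 4 libraries, and a gene was called at an adjusted p under 0.05. All 9 members reached 1 FPKM in all 24 libraries.

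The libraries held 20370651 to 29410667 fragments each. Ucp1 averaged 215 FPKM in Dox_OOA, 322 in Dox_OA and 337 in Dox_BSA cells, against 4.42 in OOA, 6.84 in OA and 5.24 in BSA cells, which sets the doxycycline arm apart from the water arm and bears on no other label. All 7 myoblast markers were present, with Myod1 at 24.1 to 65.5 FPKM, but they were not steady. In OOA against OA Myod1 (-0.58) and Cdh15 (-0.77) were called lower (log2), and Des was not called. Myf5 (1.77), Ncam1 (0.50), Vcam1 (0.26) and Itga7 (0.10) were called higher there. The 8 myotube markers summed to 48.3 to 70.0 FPKM in Dox_OOA, 59.7 to 72.8 in Dox_OA and 79.6 to 92.7 in Dox_BSA libraries, against 32.3 to 42.0 in OOA, 70.6 to 112 in OA and 119 to 152 in BSA libraries. Myh8 and Ckm among them had medians of 0 and 0.210 FPKM. The myotube sum therefore moved with the groups. The part of the myoblast and myotube markers in the results on the 9 genes was not tested. Markers of adipocytes, endothelium and epithelium were at or near 0, Adipoq, Plin1, Krt8 and Krt18 at exactly 0, whereas the 5 macrophage markers summed to 2.64 to 3.56 FPKM in Dox_OOA, 1.88 to 3.95 in Dox_OA and 2.23 to 4.17 in Dox_BSA, and 1.84 to 3.30 in OOA, 2.23 to 2.83 in OA and 2.22 to 2.96 in BSA libraries. Of these, Cd68 (0.458 to 2.46 FPKM) and Lyz2 (0.661 to 2.16 FPKM) were detected in every library, and Ptprc and Adgre1 were at most at 0.00655 FPKM. Cd68 was called higher in Dox_OOA than in OOA libraries (0.53, limma adjusted p = 0.0328), and its part in the results was not tested. In these bulk libraries, fewer cells of a type and less RNA per cell cannot be told apart. The labels do not say whether replicates were separate cultures, and p-values then measure only the spread between these libraries.

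The phosphatase partner Ppp1r15b and the substrate Eif2s1 were the most abundant of the 9 mRNAs in 5 of the 6 groups, with means of 26.3 to 32.5 and 20.1 to 29.2 FPKM in those groups. Only in OOA did Ppp1r15a stand above both. In Dox_OOA cells the order after Eif2s1 was Eif2ak4 (15.9), Ppp1r15a (12.3), Eif2ak2 (9.47), Eif2ak1 (8.57), Oma1 (7.74), Dele1 (6.61) and Eif2ak3 (4.69 FPKM), with overlap between Eif2ak1 and Oma1 and between Oma1 and Dele1. In BSA cells the order after Ppp1r15b and Eif2s1 was Eif2ak1 (10.9), Eif2ak2 (9.65), Eif2ak4 (8.25), Dele1 (7.79), Oma1 (7.71), Eif2ak3 (6.24) and Ppp1r15a (4.50 FPKM). There the ranges of Ppp1r15b and Eif2s1 overlapped, and so did those of each neighbouring pair between Eif2ak1 and Oma1. In the plot of single libraries, the 4 OOA values of Ppp1r15a lie from 50.5 to 59.9 FPKM.

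**Figure D1:**
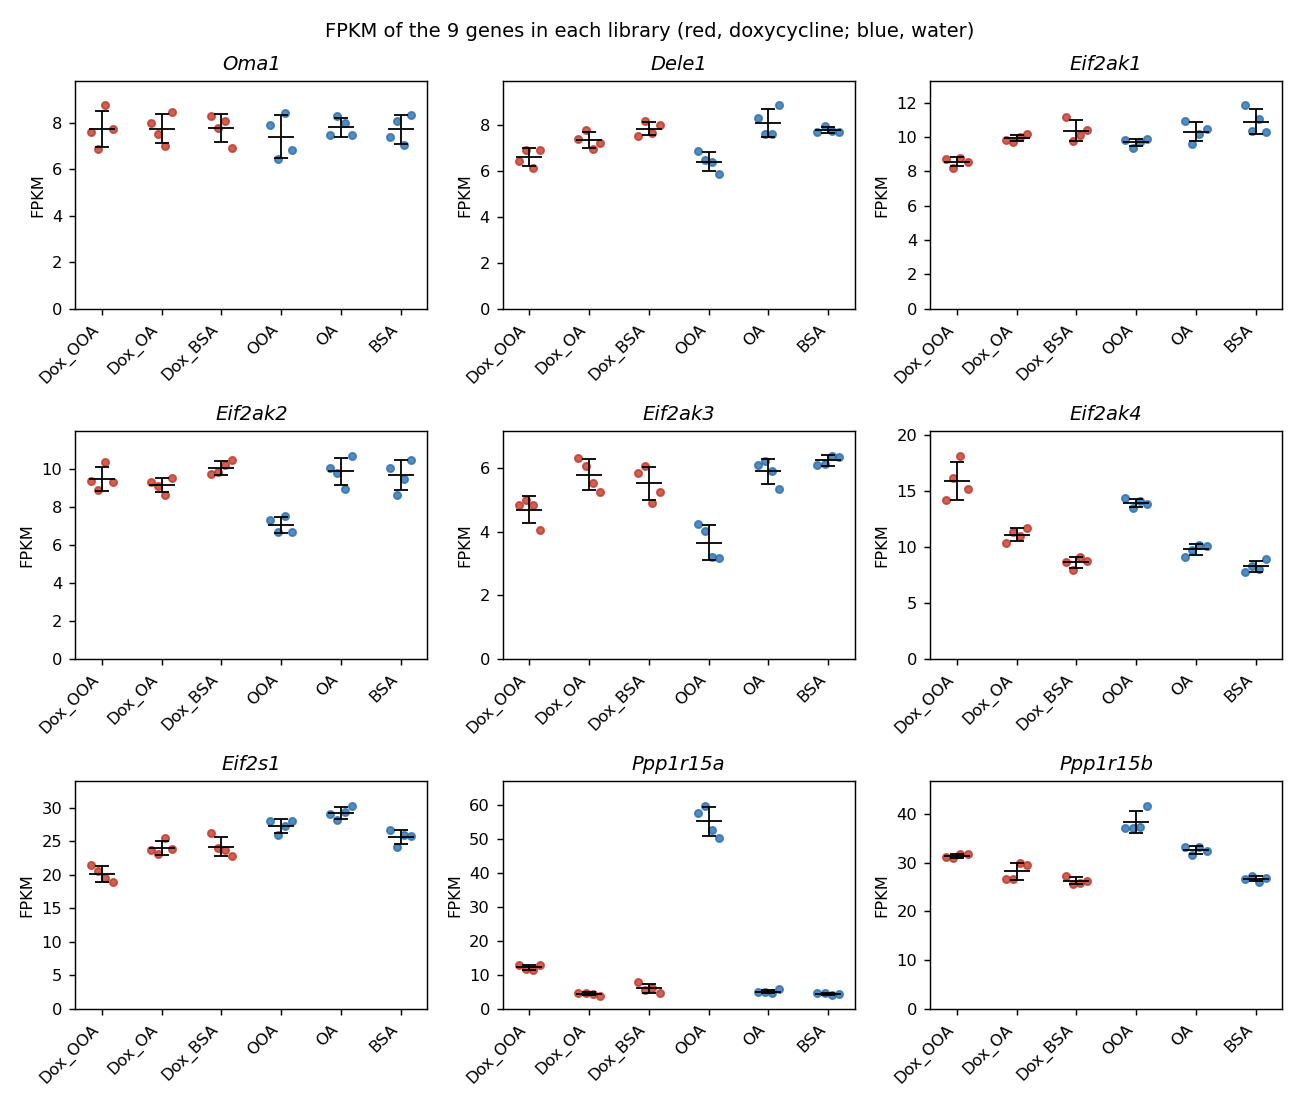
FPKM of each of the 9 genes in every library, with red points for the doxycycline arm and blue points for the water arm; the horizontal bar is the mean and the whiskers are 1 SD (n = 4), and each panel has its own linear axis from 0. Ppp1r15a reaches 50.5 to 59.9 FPKM in OOA and 11.4 to 13.0 FPKM in Dox_OOA libraries, whereas Oma1 lies between 6.43 and 8.74 FPKM in all 24.

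The number of members called differed between comparisons, as did the number of all genes called. OOA against OA asked what oligomycin does in cells without induction; 3 members rose and 3 fell there, against 56.9% of all genes tested. Dox_OOA against Dox_OA asked the same with induction; 3 rose and 3 fell, against 33.2% of all genes. OA against BSA gave 3 rises among the members (8.29% of all genes called), and Dox_OA against Dox_BSA gave 1 rise and 1 fall (6.71%). Doxycycline gave 3 rises and 4 falls in Dox_OOA against OOA (45.7%), 2 falls in Dox_OA against OA (11.3%), and no call in Dox_BSA against BSA (2.18%). In that last comparison limma put 1 member under an unadjusted p of 0.05, and limma-voom on recovered reads also called 0. OA cells stand in both oleic acid and oligomycin comparisons of the water arm, and Dox_OA cells in both of the doxycycline arm, so these comparisons share libraries and their directions are not independent.

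The median absolute change (log2) of the members was above that of all genes in some comparisons and below it in others. It was 0.30 in OOA against OA (all genes 0.25), 0.19 in Dox_OOA against Dox_OA (0.15), 0.28 in Dox_OOA against OOA (0.19), 0.12 in Dox_OA against OA (0.10) and 0.09 in Dox_OA against Dox_BSA (0.08). It was 0.07 in OA against BSA (all genes 0.08) and 0.06 in Dox_BSA against BSA (0.07). Beside the single pairs, the oligomycin response itself was compared between the arms, (Dox_OOA minus Dox_OA) minus (OOA minus OA), which called 3 members and 29.7% of all genes, with medians of 0.15 for the members and 0.19 for all genes. The oleic acid response compared in the same way had medians of 0.13 and 0.09 and called 0 members and 0.635% of all genes, with 3 members under an unadjusted p of 0.05 and 0 called by limma-voom. The grid of changes collects the pairwise comparisons.

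**Figure D2:**
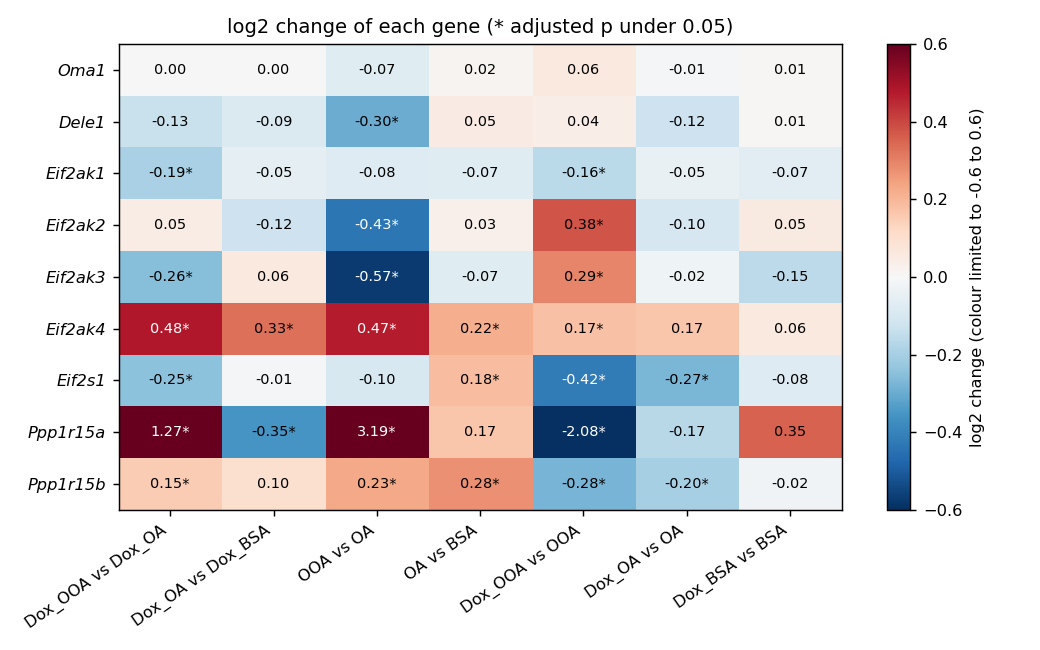
Change of each gene (rows) in the 7 pairwise comparisons (columns), as differences of mean log2(FPKM + 1) printed in each cell, with an asterisk where limma's adjusted p was under 0.05; the colours stop at 0.6 in both directions. The darkest cells are Ppp1r15a at 3.19 in OOA vs OA, 1.27 in Dox_OOA vs Dox_OA and -2.08 in Dox_OOA vs OOA, and no cell carries an asterisk in the Oma1 row or in the Dox_BSA vs BSA column.

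The first step of the relay, the inner membrane protease OMA1, was steady at the mRNA level. Oma1 had 7.62, 6.88, 8.74 and 7.71 FPKM in Dox_OOA, 7.99, 7.52, 6.99 and 8.48 in Dox_OA, and 8.28, 7.79, 8.07 and 6.91 in Dox_BSA libraries. In the water arm it had 7.92, 6.43, 8.43 and 6.83 FPKM in OOA, 7.45, 8.28, 7.99 and 7.49 in OA, and 7.38, 8.09, 7.03 and 8.34 in BSA libraries. All groups overlapped. The change was -0.07 in OOA against OA (95% interval -0.23 to 0.09, adjusted p = 0.448) and 0.00 in Dox_OOA against Dox_OA (-0.16 to 0.16). The gene is listed as ENSMUSG00000035069 at chr4:103171009-103229065 on the plus strand of GRCm39.

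Dele1, which encodes the mitochondrial protein that OMA1 cuts, was lower with oligomycin. It had 6.88, 6.47, 6.39 and 5.88 FPKM in OOA libraries, against 8.29, 7.61, 7.63 and 8.86 FPKM in OA libraries. Every OOA library was below every OA library. The fall was -0.30 ± 0.05 (log2, SE, n = 4 per group; limma adjusted p = 3.62e-05). In the doxycycline arm Dele1 had 6.44, 6.93, 6.13 and 6.92 FPKM in Dox_OOA, against 7.39, 7.79, 6.96 and 7.22 FPKM in Dox_OA libraries, a change of -0.13 ± 0.05 that missed the threshold (limma adjusted p = 0.0514). Those groups do not overlap either, and the adjusted p was 0.04 to 0.0425 without any of 3 libraries (Dox_OA replicate 3, Dox_OOA replicate 2 or Dox_OOA replicate 4). The 2 responses were not shown to differ, at 0.16 ± 0.07 between the arms (limma adjusted p = 0.0992). In albumin alone Dele1 averaged 7.85 ± 0.30 FPKM in Dox_BSA and 7.79 ± 0.12 FPKM in BSA libraries (SD, n = 4 each). The gene lies on chromosome 18 and is listed as ENSMUSG00000024442.

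Eif2ak1 encodes HRI, the kinase that the DELE1 fragment activates. It had 8.74, 8.22, 8.76 and 8.55 FPKM in Dox_OOA libraries, against 9.83, 9.73, 10.0 and 10.1 FPKM in Dox_OA libraries. Dox_OOA libraries were the lowest of all 6 groups, without overlap. The fall was -0.19 ± 0.05 against Dox_OA (limma adjusted p = 0.00251) and -0.16 ± 0.05 against OOA (limma adjusted p = 0.0068), which had 9.81, 9.38, 9.70 and 9.85 FPKM. OOA itself stood at -0.08 ± 0.05 against OA (limma adjusted p = 0.15), and the oligomycin response was not shown to differ between the arms (-0.11 ± 0.07, limma adjusted p = 0.212). In the remaining groups Eif2ak1 averaged 10.4 ± 0.608 FPKM in Dox_BSA, 10.3 ± 0.549 in OA and 10.9 ± 0.720 in BSA libraries (SD, n = 4 each), and neither oleic acid nor doxycycline without oligomycin gave a call. The gene (ENSMUSG00000029613, chr5:143803543-143841069, GRCm39) shares 1548 bases with Aimp2 on the opposite strand, and the sources used here do not say whether counting was by strand. Aimp2, which encodes a scaffold of the tRNA synthetase complex, had 9.48 to 18.6 FPKM and also fell, by -0.37 ± 0.10 in Dox_OOA against Dox_OA (limma adjusted p = 0.00722) and by -0.42 ± 0.10 in OOA against OA (limma adjusted p = 0.00132). The part of these shared reads in the Eif2ak1 values was not tested.

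Eif2ak4, for the kinase GCN2, rose step by step across the treatments in both arms. It had 14.2, 16.1, 18.1 and 15.2 FPKM in Dox_OOA, 10.4, 11.3, 11.0 and 11.7 in Dox_OA, and 8.62, 7.97, 9.12 and 8.75 in Dox_BSA libraries. In the water arm it had 14.3, 13.4, 14.1 and 13.8 FPKM in OOA, 9.12, 9.74, 10.1 and 10.1 in OA, and 7.77, 8.25, 8.03 and 8.94 in BSA libraries. Within each arm the 3 treatments did not overlap. Oligomycin raised it by 0.48 ± 0.06 in Dox_OOA against Dox_OA (limma adjusted p = 1.3e-06) and by 0.47 ± 0.06 in OOA against OA (limma adjusted p = 3.87e-07), and the difference between these responses was 0.01 with a 95% interval of -0.17 to 0.18.

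Oleic acid raised Eif2ak4 by 0.33 ± 0.06 in Dox_OA against Dox_BSA (limma adjusted p = 0.0006) and by 0.22 ± 0.06 in OA against BSA (limma adjusted p = 0.0202). The second call was lost with a fixed sum per library (adjusted p = 0.0901) and without any of 4 libraries (BSA replicate 1 or 3, OA replicate 3 or 4; adjusted p = 0.0589 to 0.0724). Dox_OOA stood above OOA by 0.17 ± 0.06 (limma adjusted p = 0.0194), with overlapping libraries. Without Dox_OOA replicate 3, the highest of the 24 at 18.1 FPKM, that difference was 0.11 with an adjusted p of 0.104. It also missed the threshold without OOA replicate 2 (adjusted p = 0.0533) and with only the compared groups fitted (adjusted p = 0.0584). Dox_OA against OA gave 0.17 ± 0.06, which missed the threshold with limma on FPKM and passed with limma-voom on recovered reads (adjusted p = 0.0449). The gene is listed as ENSMUSG00000005102 at chr2:118219099-118305715 on the plus strand of GRCm39.

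Eif2ak3 encodes PERK, the kinase of the endoplasmic reticulum membrane, and was the least abundant kinase mRNA of the 4 in every group. It had 4.24, 4.02, 3.21 and 3.17 FPKM in OOA libraries, against 6.11, 6.23, 5.93 and 5.34 FPKM in OA libraries, a fall of -0.57 ± 0.08 (limma adjusted p = 1.25e-06). In the doxycycline arm it had 4.85, 5.01, 4.84 and 4.07 FPKM in Dox_OOA, against 6.33, 6.07, 5.53 and 5.25 FPKM in Dox_OA libraries, a fall of -0.26 ± 0.08 (limma adjusted p = 0.0137). The groups did not overlap in either arm. The second fall missed the threshold without Dox_OA replicate 1 (adjusted p = 0.0518) or Dox_OOA replicate 4 (0.0624).

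Eif2ak3 was higher in Dox_OOA than in OOA libraries by 0.29 ± 0.08 (limma adjusted p = 0.00349), with overlapping ranges. The oligomycin response differed between the arms by 0.32 ± 0.11 (limma adjusted p = 0.0327), a call that was lost under 12 of its 22 alternatives, with adjusted p up to 0.0786. Among these were no filter on low genes, a fit of the compared groups alone, and leaving out any of 10 of the 16 libraries of the 4 groups. With albumin alone Eif2ak3 had 5.84, 6.07, 4.92 and 5.25 FPKM in Dox_BSA libraries, against 6.09, 6.12, 6.40 and 6.36 FPKM in BSA libraries. Every Dox_BSA library was below every BSA library, but the difference of -0.15 ± 0.08 was not called. The gene is listed as ENSMUSG00000031668 at chr6:70821499-70882229 on the plus strand of GRCm39.

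Eif2ak2 encodes PKR, the kinase activated by double-stranded RNA and induced by interferon. It had 7.29, 6.70, 7.52 and 6.70 FPKM in OOA libraries, against 10.1, 9.76, 8.95 and 10.7 FPKM in OA libraries, a fall of -0.43 ± 0.06 (limma adjusted p = 1.09e-06). With doxycycline it had 9.34, 8.87, 10.3 and 9.32 FPKM in Dox_OOA, against 9.29, 9.10, 8.64 and 9.50 FPKM in Dox_OA libraries. The OOA libraries were the lowest 4 of the 24, and the Dox_OOA libraries overlapped Dox_OA. The oligomycin response differed between the arms by 0.48 ± 0.08 (limma adjusted p = 9.09e-05), and Dox_OOA stood above OOA by 0.38 ± 0.06 (limma adjusted p = 1.06e-05). Without oligomycin Eif2ak2 was not called in any comparison, with 9.72 to 10.5 FPKM in Dox_BSA and 8.64 to 10.5 FPKM in BSA libraries. The gene is listed as ENSMUSG00000024079 at chr17:79159993-79190002 on the minus strand of GRCm39.

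The plot of the kinase shares sets the 4 mRNAs side by side. Their summed level was 38.6 ± 2.36 FPKM in Dox_OOA, 35.9 ± 0.589 in Dox_OA and 34.5 ± 0.758 in Dox_BSA, and 34.3 ± 1.01 in OOA, 35.8 ± 0.678 in OA and 35 ± 1.2 in BSA libraries (SD, n = 4 each). Within that sum Eif2ak4 made up 41.1% ± 2.15 in Dox_OOA and 30.8% ± 1.29 in Dox_OA libraries, and 40.6% ± 0.536 in OOA and 27.3% ± 1.51 in OA libraries (SD, n = 4 each). Eif2ak1, at 22.2% ± 1.29 in Dox_OOA and 27.6% ± 0.654 in Dox_OA libraries, had its lowest share in Dox_OOA. In BSA cells Eif2ak1 had the largest share, 31.1% ± 1.90, and Eif2ak4 had 23.6% ± 1.47.

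**Figure D3:**
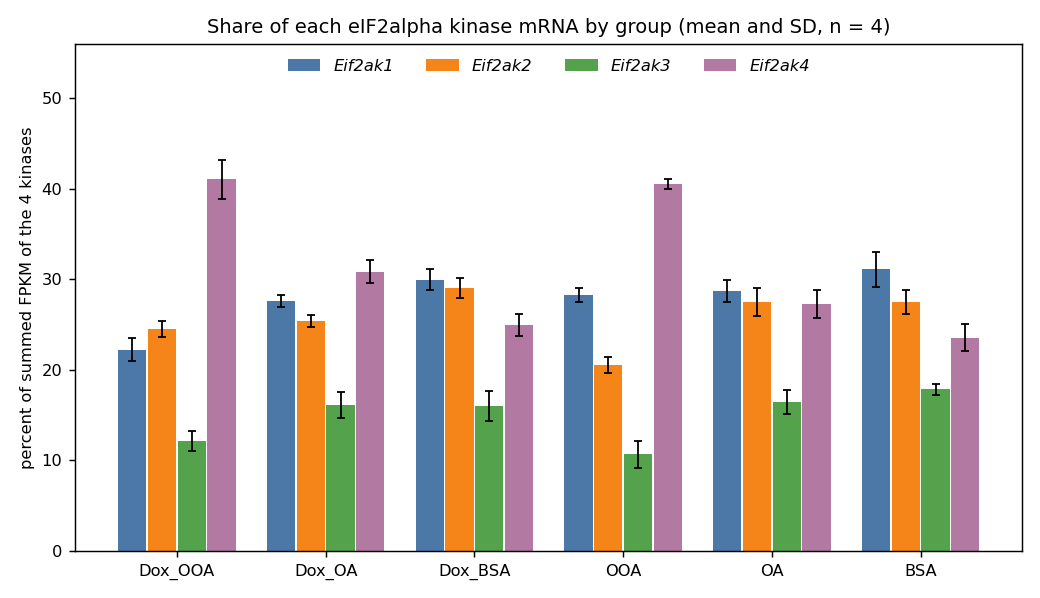
Share of each eIF2alpha kinase mRNA in the summed FPKM of the 4 kinase genes, in percent, by group; bars are means and whiskers 1 SD (n = 4). Eif2ak4 takes 41.1% in Dox_OOA and 40.6% in OOA, and Eif2ak3 takes the smallest share in all 6 groups.

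Eif2s1, which encodes the subunit that the 4 kinases phosphorylate, was called lower with doxycycline in both comparisons of groups with oleic acid. It had 21.5, 20.5, 19.5 and 18.9 FPKM in Dox_OOA libraries, against 27.9, 25.9, 27.2 and 28.0 FPKM in OOA libraries, a fall of -0.42 ± 0.05 (limma adjusted p = 8.06e-08). It had 23.6, 23.1, 25.5 and 23.8 FPKM in Dox_OA libraries, against 29.1, 28.2, 29.3 and 30.3 FPKM in OA libraries, a fall of -0.27 ± 0.05 (limma adjusted p = 0.000459). Neither pair overlapped. In albumin alone the groups overlapped, at 24.2 ± 1.46 FPKM in Dox_BSA and 25.6 ± 1.08 FPKM in BSA libraries (SD, n = 4 each). The difference there, -0.08 ± 0.05, was not called.

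Along the treatments, Eif2s1 rose by 0.18 ± 0.05 in OA against BSA (limma adjusted p = 0.0116), where Dox_OA against Dox_BSA gave -0.01 ± 0.05. Oligomycin lowered it by -0.25 ± 0.05 in Dox_OOA against Dox_OA (limma adjusted p = 0.000235). In OOA against OA the change was -0.10 ± 0.05 (limma adjusted p = 0.0758, and 0.0289 with a fixed sum per library). The oligomycin response was not shown to differ between the arms (-0.15 ± 0.06, limma adjusted p = 0.0919), though it did without Dox_OOA replicate 1 (adjusted p = 0.0437). Nor was the oleic acid response (-0.19 ± 0.06, limma adjusted p = 0.29). The gene is listed as ENSMUSG00000021116 at chr12:78908593-78933784 on the plus strand of GRCm39.

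The partners of eIF2alpha were read from 11 genes for the other eIF2 subunits, the exchange factor eIF2B and related factors, 10 of which were tested. Over all genes tested, 45.7% were called in Dox_OOA against OOA and 11.3% in Dox_OA against OA. The share was 56.9% in OOA against OA and 33.2% in Dox_OOA against Dox_OA, near the shares of the 10 called there. In Dox_OOA against OOA 8 fell and none rose, with a median of -0.27 (all genes: -0.01), Eif2b3 at -0.89 ± 0.07 and Eif2s2, the beta subunit of eIF2, at -0.75 ± 0.05. In Dox_OA against OA 5 fell, none rose and 5 were not called (median -0.16), Eif2s2 at -0.35 ± 0.05 and Eif2b1 at -0.26 ± 0.06 among them. In OOA against OA 4 rose and 1 fell, with Eif2b3 at 0.94 ± 0.07 and Eif2s2 at 0.73 ± 0.05, and Eif2b1 at -0.27. In Dox_OOA against Dox_OA 2 rose, Eif2s2 (0.33 ± 0.05) and Eif2a (0.24 ± 0.06), and 2 fell, Eif5 (-0.16 ± 0.05) and Eif2b1 (-0.25 ± 0.06). Eif2s2 was thus higher with oligomycin in both arms, where Eif2s1 was called as lower in one arm and not called in the other.

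Ppp1r15a encodes GADD34, the stress-induced subunit that directs PP1 to eIF2alpha. It had 57.7, 59.9, 52.9 and 50.5 FPKM in OOA libraries, against 5.06, 5.09, 4.78 and 5.78 FPKM in OA libraries. In the doxycycline arm it had 12.9, 11.7, 11.4 and 13.0 FPKM in Dox_OOA libraries, against 4.76, 4.83, 4.46 and 3.97 FPKM in Dox_OA libraries. Every library with oligomycin stood above every library without it, and every OOA library above every Dox_OOA library. The rise was 3.19 ± 0.10 in the water arm (limma adjusted p = 7.23e-18) and 1.27 ± 0.10 in the doxycycline arm (limma adjusted p = 8.19e-10). The responses differed by -1.92 ± 0.14 (limma adjusted p = 3.81e-10), and Dox_OOA stood below OOA by -2.08 ± 0.10 (limma adjusted p = 6.04e-14), a ratio of 0.222. The plot of both oligomycin responses shows this gap beside the near-equal pair of intervals of Eif2ak4. These calls held under every alternative run, the difference between the responses ranging from -1.97 to -1.88.

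Without oligomycin Ppp1r15a was low and its calls were less stable. It had 8.0, 5.60, 6.20 and 4.65 FPKM in Dox_BSA libraries, against 4.63, 4.84, 4.10 and 4.42 FPKM in BSA libraries. The Dox_BSA libraries were the most spread, reaching from the BSA range up to 8.0 FPKM. The difference, 0.35 ± 0.10, missed the threshold, as did the 0.17 ± 0.10 of OA against BSA. Dox_OA against Dox_BSA was called as a fall of -0.35 ± 0.10 (limma adjusted p = 0.0275) with overlapping libraries, and was lost under 6 of its 14 alternatives. Without Dox_BSA replicate 1 it was -0.23 with an adjusted p of 0.105. Without Dox_BSA replicate 4, by contrast, Dox_BSA against BSA was called as a rise of 0.46 (adjusted p = 0.00632). The palindrome TGACGTCA printed above stands just before the annotated start of this gene, which is listed as ENSMUSG00000040435 at chr7:45172340-45175692 on the minus strand of GRCm39.

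**Figure D4:**
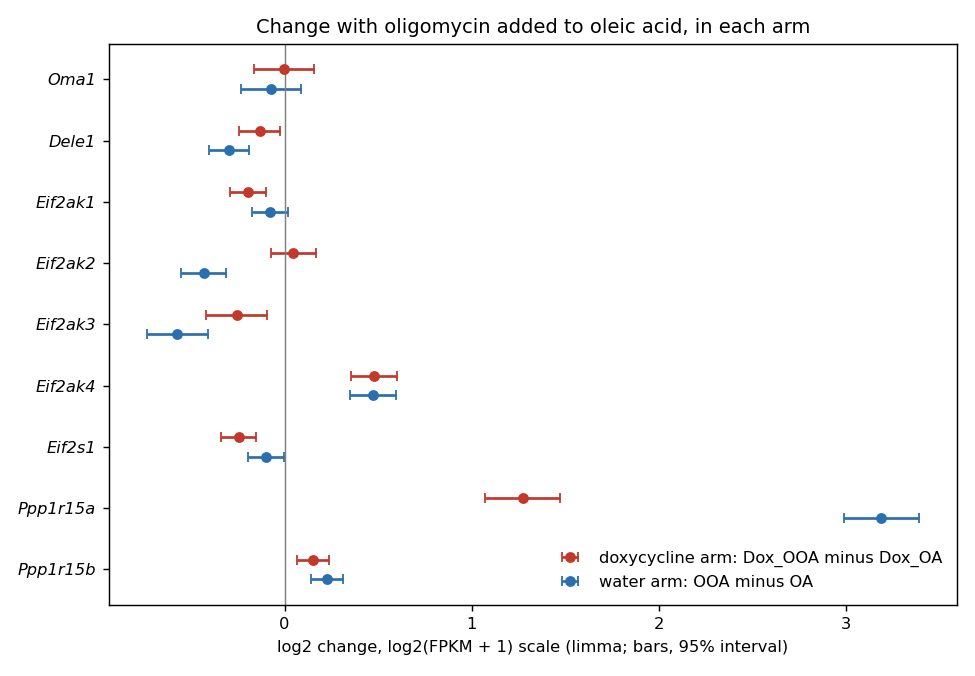
Change with oligomycin of each gene in the doxycycline arm (red, Dox_OOA minus Dox_OA) and in the water arm (blue, OOA minus OA), on the log2(FPKM + 1) scale with 95% limma intervals. Ppp1r15a lies at 1.27 in the doxycycline arm and 3.19 in the water arm, Eif2ak4 at 0.48 and 0.47, and Eif2ak2 at 0.05 and -0.43.

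Ppp1r15b, for the partner CReP that cells hold at all times, rose with oligomycin as Ppp1r15a did, but by much less. It had 37.1, 37.2, 37.3 and 41.6 FPKM in OOA libraries, against 33.1, 31.5, 33.1 and 32.3 FPKM in OA libraries, a rise of 0.23 ± 0.04 (limma adjusted p = 4.37e-05). In the doxycycline arm it had 31.1, 31.0, 31.8 and 31.7 FPKM in Dox_OOA, against 26.7, 26.7, 30.0 and 29.5 FPKM in Dox_OA libraries, a rise of 0.15 ± 0.04 (limma adjusted p = 0.00553). The groups did not overlap in either arm, and the responses were not shown to differ (-0.08 ± 0.06, limma adjusted p = 0.352). OA cells also stood above BSA cells, which averaged 26.7 ± 0.460 FPKM, by 0.28 ± 0.04 (limma adjusted p = 6.87e-05), whereas Dox_OA against Dox_BSA gave 0.10 ± 0.04, which was not called (limma adjusted p = 0.175). With doxycycline Ppp1r15b fell by -0.28 ± 0.04 in Dox_OOA against OOA (limma adjusted p = 5.55e-06) and by -0.20 ± 0.04 in Dox_OA against OA (limma adjusted p = 0.00223). The gene is listed as ENSMUSG00000046062 at chr1:133058881-133067521 on the plus strand of GRCm39.

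Ppp1r15a exceeded Ppp1r15b in a single group. The ratio of Ppp1r15a to Ppp1r15b was 1.45 ± 0.177 in OOA and 0.391 ± 0.0275 in Dox_OOA libraries, and its group means lay from 0.159 to 0.232 in the groups without oligomycin (SD, n = 4). Of the 3 PP1 catalytic subunits that both partners carry, Ppp1ca fell by -0.51 ± 0.05 and Ppp1cc by -0.46 ± 0.04 in OOA against OA, and Ppp1cb was not called. In Dox_OOA against Dox_OA they fell by -0.30 ± 0.05 and -0.32 ± 0.04, while Ppp1cb rose by 0.32 ± 0.05.

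Genes upstream and downstream of the 9 were read from lists, beside 56.9% of all genes called in OOA against OA and 33.2% in Dox_OOA against Dox_OA. Of 23 genes of inner membrane proteases and proteins that OMA1 works with, 9 rose and 10 fell in OOA against OA, with Chchd10, a cristae protein, at 1.60 ± 0.16, the rhomboid protease Parl at 0.45 ± 0.06 and the import receptor Tomm22 at -0.40 ± 0.06. In Dox_OOA against Dox_OA none of them rose and 7 fell, such as Tomm40 at -0.55 ± 0.06 and the prohibitin gene Phb at -0.34 ± 0.08; the share called is near that of all genes. Of 10 mitochondrial matrix chaperones and proteases 6 rose and none fell in OOA against OA (Lonp1 1.73 ± 0.04, Hspa9 1.31 ± 0.04). Their median was 0.31 (all genes: 0.01). The share called in either direction is near that of all genes, but of all 12904 genes 3673 rose and 3664 fell. In Dox_OOA against Dox_OA 3 of these 10 rose and Hspd1 fell by -0.24 ± 0.06.

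For the kinases, 11 genes whose products bind or regulate them gave 2 rises and 6 falls in OOA against OA. Over all genes 56.9% were called there. Tarbp2 (-0.49 ± 0.06) and Dnajc3 (-0.47 ± 0.05), both known as inhibitors of these kinases, fell, as did the chaperone genes Hspa8 (-0.77 ± 0.06) and Hsp90aa1 (-0.64 ± 0.05). Prkra, which encodes a protein activator of PKR, rose by 0.27 there, and Gcn1, a cofactor of GCN2, by 0.18. In Dox_OOA against Dox_OA, where 33.2% of all genes were called, 1 of the 11 rose, Prkra by 0.29 ± 0.08. The 4 that fell there included Hsp90aa1 (-0.57 ± 0.05), Dnajc3 (-0.32 ± 0.05) and Hspa8 (-0.27 ± 0.06). Heme, which holds HRI inactive, is made and broken down by the products of 12 genes, of which 5 rose and 4 fell in OOA against OA. Cpox, of heme synthesis, rose by 1.39 ± 0.07 and Hmox1, of heme breakdown, by 1.63 ± 0.07. In Dox_OOA against Dox_OA 3 of the 12 rose and 3 fell, with Cpox at 0.49 ± 0.07 and Hmox1 at 0.52 ± 0.07.

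Interferon-stimulated genes, a class to which Eif2ak2 belongs, were mostly below the filter, with 10 of 23 tested. In OOA against OA 2 of them rose, Bst2 (0.42 ± 0.11) and Isg15 (0.52 ± 0.22), and 2 fell, Irf1 (-0.71 ± 0.11) and Stat2 (-0.20 ± 0.08). In Dox_OOA against OOA, where Eif2ak2 rose by 0.38, 4 of the 10 rose and none fell (median 0.19, all genes -0.01). Ddx58 at 0.52 ± 0.07 and Stat2 at 0.52 ± 0.08 were among those that rose. Of all 12904 genes tested, 45.7% were called there, 2843 as higher and 3060 as lower. Among 20 chaperones and sensors of the endoplasmic reticulum, the compartment of PERK, 9 rose and 9 fell in OOA against OA, with Herpud1 at 1.37 ± 0.06 and Hsp90b1 at -0.75 ± 0.04. In Dox_OOA against Dox_OA 3 rose and 12 fell (median -0.25, all genes 0.00). The shares of all genes called were 56.9% in OOA against OA and 33.2% in Dox_OOA against Dox_OA.

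Downstream, 33 genes of the ATF4 axis and its targets gave 32 rises and 1 fall in OOA against OA (median 2.0) and 31 rises in Dox_OOA against Dox_OA (median 0.97). The exception was the amino acid transporter gene Slc38a2 at -0.26. In Dox_OOA against OOA 32 fell and Slc38a2 rose by 0.16, and the median was -1.34. Over all genes, 56.9% were called in OOA against OA, 33.2% in Dox_OOA against Dox_OA and 45.7% in Dox_OOA against OOA. The medians of all genes in these were 0.01, 0.00 and -0.01. In Dox_BSA against BSA 16 rose (2.18% of all genes called), where 0 of the 9 members were called. In Dox_OA against Dox_BSA 26 fell (6.71% of all genes called), among them Trib3 (-1.92 ± 0.11) and Aldh1l2 (-1.07 ± 0.05). Ppp1r15a was called as a fall there. The list was written with results on these genes known and is no independent evidence of their direction.

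Across the 24 libraries, which fall into the 6 groups, the protein-coding genes closest to Ppp1r15a by Pearson correlation of log2(FPKM + 1) were Rhbdd1 (r = 0.994), Sqstm1 (0.993) and Atp2a3 (0.991). With group means removed these were 0.458, 0.487 and 0.157. Rhbdd1 averaged 13.2 FPKM in Dox_OOA and 7.22 in Dox_OA cells, and 28.4 FPKM in OOA and 7.87 in OA cells. Sqstm1, which encodes an autophagy receptor, averaged 158 and 340 FPKM in Dox_OOA and OOA cells, and 92.3 and 103 FPKM in Dox_OA and OA cells. Eif2ak4 was closest to Ahr (0.966), the aryl hydrocarbon receptor gene, Eif2s1 to the chaperonin gene Cct6a (0.971) and Ppp1r15b to Plek (0.952). Eif2ak3 was closest to Oat (0.938), Eif2ak2 to Dclk1 (0.919), Dele1 to Copg1 (0.902) and Eif2ak1 to Pcdh19 (0.881). Oma1 reached only 0.598, with Chn2. Among the members, Ppp1r15a and Eif2ak3 gave -0.885, Ppp1r15a and Ppp1r15b 0.809, and Oma1 at most 0.359 in size, with Eif2ak2.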

How the data were processed

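Per the labels' protocols, total RNA went into libraries by the NEBNext Ultra II RNA kit. The authors deposited FPKM values per Ensembl gene. Per the submitters' processing notes, which give neither role nor version, the tools were HISAT2, STAR, STAR-Fusion, HTSeq, edgeR and DESeq2, and the build GRCm39 (mm39). Coordinates are those deposited, except sequences, which come from RefSeq (GRCm38.p6) and GENCODE (GRCm38). Every value was a whole number of reads within 0.01 once length and library scale were taken out, and those recovered reads entered limma-voom only.

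Tests used limma 3.58.1 in R 4.3.3 on log2(FPKM + 1), with trend and robust variance, all 24 libraries in 1 fit with 18 residual degrees of freedom, 9 contrasts, and genes at 1 FPKM or more in at least 4 libraries. Fold changes on this scale understate those of low genes. Alternatives were a pseudocount of 0.1, no filter, a fixed sum per library, only the compared groups, a replicate block, limma-voom, and each library left out. The procedure was tested on simulated data. The members and lists were chosen with earlier results of these data known. All members were named; of each list, up to 4 called genes with the smallest p per contrast, others being chosen after their values were seen.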

Additional observations from a re-analysis of the deposited data

Results flagged for a closer look

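The response to oligomycin differed between the arms for 3 of the 9 genes when the difference itself was tested with limma. It was lower in the doxycycline arm by -1.92 for Ppp1r15a, and higher there by 0.48 for Eif2ak2 and 0.32 for Eif2ak3 (log2). In all 3 the doxycycline arm had the smaller change, and 29.7% of all genes differed in the same test.

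Within groups, a single library stood apart from the other 3 in 2 of the 54 sets of 4 values, where chance gives about 1 in 20. Dele1 was 7.97 FPKM in BSA replicate 2, against 7.72 to 7.74 FPKM in the other BSA libraries, a gap of little size in a tight group. Ppp1r15b was 41.6 FPKM in OOA replicate 4, against 37.1 to 37.3 FPKM in the other OOA libraries, and its calls against OA and against Dox_OOA held without that library.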

How the results depend on the processing

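Of 1278 values of single genes under alternatives (81 results), 1238 stayed on their side of the threshold, 28 lost a call, 12 gained one and none changed sign while called; 70 results held under every alternative run. Members called in Dox_OA against Dox_BSA numbered 2, but 1 with no filter on low genes and 1 with only the compared groups, and 1 to 2 with a library left out. In Dox_BSA against BSA 0 were called, but 1 with a fixed sum per library, 1 with a replicate block, and 0 to 1 with a library left out (1 without Dox_BSA replicate 4). The oleic acid response compared between arms gave 0 to 1 with a library left out, again 1 without Dox_BSA replicate 4. The block also added calls for Dele1 in Dox_OOA against Dox_OA (adjusted p = 0.0465) and Eif2ak4 in Dox_OA against OA (0.0458). Over all genes, libraries with the same replicate number were only weakly correlated once group means were removed (r from -0.0382 to 0.113 over 28 pairs, 1 of them over 0.1). In 11 of the pairs the correlation was highest with the same number. Such a correlation cannot show that single genes carry no pairing. The block gave more calls over all genes in each of the 9 contrasts, such as 380 in place of 281 in Dox_BSA against BSA.

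Over all genes, Dox_OA against OA gave 1458 calls, 935 with no filter and 964 without OA replicate 2. Dox_OA against Dox_BSA gave 866 and Dox_BSA against BSA 281, but 518 and 79 with only the compared groups, and the last gave 173 without Dox_BSA replicate 2. With a fixed sum per library the share of higher calls was 38.2% in place of 56.4% in OA against BSA, 55.1% in place of 37.9% in Dox_OA against OA, and 25.6% in place of 14.6% for the oleic acid response between arms. The causes of these shifts were not tested.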
